A study of Mus musculus with 16 samples.

Results

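The genes described here are 9 genes that are often studied in sarcoma, of which 8 encode receptor tyrosine kinases (Met, Erbb3, Egfr, Kit, Pdgfra, Pdgfrb, Igf1r and Fgfr1) and 1, Hgf, encodes the ligand of Met and is not itself a receptor. They were taken by name from a list whose rule uses no measured value, although the list was drawn up with earlier results of these data known, and are 9 of 21938 protein-coding genes of the GENCODE annotation on chromosomes 1 to 19, X and Y. Their peaks were collected in 3 zones, which were the promoter (within 3 kb of any annotated transcription start site, TSS), the gene body, and the region within 50 kb of any TSS.

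Receptor tyrosine kinases are membrane proteins that pair when a growth factor binds outside the cell, phosphorylate each other on tyrosine, and thereby recruit adaptor proteins that switch on the RAS-MAPK and PI3K-AKT pathways. Phosphatases, SOCS proteins and ubiquitin ligases turn the signal off again. In the melanocytic lineage, which clear cell sarcoma (CCS) resembles, the receptors KIT, MET and ERBB3 are known for their part in the migration and survival of pigment cell precursors.

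Tumours of a mouse model of CCS were studied by ChIP-seq, in which chromatin is pulled down with an antibody and its DNA is sequenced. The mice, of mixed 129/SvJ and C57Bl/6 background, carried a V5-tagged human EWSR1::ATF1 (EA1) cDNA and an IRES-eGFP reporter in the Rosa26 locus behind a loxP-flanked stop. TATCre, a Cre protein that enters cells, was injected into the hindlimb at 4 weeks of age to remove the stop, a method that does not restrict the fusion to 1 cell type. The 16 samples were 4 V5 (the tag of the fusion), 4 RNAPOL2 (labelled pol2, which the study describes as phosphorylated RNA polymerase II, the form engaged in transcription), 4 H3K27ac (a histone acetylation found at active promoters and enhancers) and 4 input samples, and every one was labelled as tumour of genotype EWSR1::ATF1, so no tissue without the fusion could be compared.

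Each antibody was represented by 1 deposited peak list, with 10665 V5, 20375 RNAPOL2 and 27552 H3K27ac peaks. No values per sample or read depths were in the lists, so the counts and ranks given here have no replicate error and no test. Each peak had a score, a whole number from 21 to 23478 for V5, from 23 to 23501 for RNAPOL2 and from 21 to 12513 for H3K27ac. Sites in the study are described by a significance score. Whether that is the deposited score, and on what scale, is not given, so each peak was ranked only within its own list, with rank 1 for the highest score. The tumours were bulk tissue, in which fewer cells of a type and less signal per cell cannot be told apart.

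Among 8 markers of melanocytes and CCS, 1 had a V5 promoter peak (Dct), 2 had an RNAPOL2 promoter peak (Mitf and Pmel) and 3 had an H3K27ac promoter peak (Mitf, Pmel and S100b), while Sox10, Tyr, Tyrp1 and Mlana had none. H3K27ac promoter peaks were found at 0 of 8 skeletal muscle, 6 of 8 leukocyte, 3 of 6 endothelial and 5 of 8 fibroblast and pericyte markers, and V5 promoter peaks at none of the genes in these 4 lists. RNAPOL2 promoter peaks were found at 1, 2, 1 and 4 of the markers in the same order. Of all coding genes, 16.6% had a V5, 53.5% an RNAPOL2 and 58.6% an H3K27ac promoter peak. The part that cells other than tumour cells had in the peaks of the receptor genes was not tested.

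The sequences that carry the V5 results at the receptor genes are those of the peaks that lie close to them. ATF1 belongs to the ATF/CREB family, which binds the motif TGACGTCA. Sites of the form TGANNTCA other than TGACGTCA were counted as variants, TGAGTCA as the AP1 motif, and more than 4 TGA or TCA units with gaps of at most 5 bp as a string. All were sought on both strands, and a site of one form could overlap a string. Of all V5 peaks, 8.51% held TGACGTCA, 40.3% a variant, 26.0% the AP1 motif and 10.2% a string. All stretches shown hold a motif or a string. Peaks without either, among them the highest-scored peak of Met and the promoter peak of Igf1r, are not shown. The following stretches were read 5′ to 3′ on the forward strand of mm10 (GRCm38), with the motif in capitals.
Fgfr1, upstream V5 peak with the score of 288, chr8:25481864-25481983: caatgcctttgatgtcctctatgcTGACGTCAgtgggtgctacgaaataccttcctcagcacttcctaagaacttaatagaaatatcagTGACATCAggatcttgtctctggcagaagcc
Fgfr1, upstream V5 peak with the score of 238, chr8:25483057-25483176: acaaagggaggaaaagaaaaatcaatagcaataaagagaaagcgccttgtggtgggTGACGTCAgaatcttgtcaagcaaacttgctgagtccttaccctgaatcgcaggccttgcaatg
Hgf, V5 promoter peak, chr5:16552701-16552900: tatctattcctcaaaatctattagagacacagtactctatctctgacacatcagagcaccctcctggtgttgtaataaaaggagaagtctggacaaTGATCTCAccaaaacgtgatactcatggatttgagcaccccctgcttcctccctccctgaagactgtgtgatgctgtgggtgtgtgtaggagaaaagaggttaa
Met, V5 peak beyond the gene end, chr6:17584008-17584127: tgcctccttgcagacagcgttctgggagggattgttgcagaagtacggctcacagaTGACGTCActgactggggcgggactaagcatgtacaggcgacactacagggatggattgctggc
Igf1r, intronic V5 peak of the highest score, chr7:68036533-68036652: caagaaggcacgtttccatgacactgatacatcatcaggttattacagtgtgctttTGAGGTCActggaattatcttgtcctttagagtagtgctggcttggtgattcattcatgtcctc
In the V5 promoter peak of Fgfr1 the capitals mark a string of 5 units instead.
Fgfr1, V5 promoter peak, chr8:25521780-25521899: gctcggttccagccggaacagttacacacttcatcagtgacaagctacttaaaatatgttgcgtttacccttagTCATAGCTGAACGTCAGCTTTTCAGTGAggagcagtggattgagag

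The 9 genes fell into 4 patterns of promoter peaks. Fgfr1, Igf1r and Hgf had a promoter peak in all 3 lists, as did 15.9% of coding genes. With a promoter window of 1 kb, Fgfr1 lost its V5 promoter peak, which left Hgf and Igf1r (2 of 9, beside 15.2%). Egfr had RNAPOL2 and H3K27ac peaks without V5, as did 36.3% of coding genes. Met, Pdgfra and Pdgfrb had an H3K27ac peak alone, a pattern found at 5.87% of coding genes. Erbb3 and Kit had no promoter peak in any list, as did 39.9% of coding genes.

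Counted by list, 3 of the 9 genes had a V5 promoter peak, beside 16.6% of all coding genes. RNAPOL2 was found at 4 of 9 promoters, beside 53.5%, and H3K27ac at 7 of 9, beside 58.6%. In gene bodies, V5 peaks were found in Met, Igf1r and Fgfr1, which are 3 of the 9 genes, beside 20.0% of all coding genes, and 3 of the 6 that are at least 50 kb long, beside 37.8% of coding genes of that length. RNAPOL2 was found in 4 bodies, beside 53.7% of all coding genes and 65.0% of those of at least 50 kb. H3K27ac was found in 7, beside 59.1% and 75.8%. The body zone includes promoter peaks. With the promoter windows left out, V5 body peaks remained in 2 of the 9 genes (Met and Igf1r), beside 7.10% of coding genes. All RNAPOL2 body peaks of Hgf and Egfr, and all H3K27ac body peaks of Met, Hgf, Pdgfra and Pdgfrb, were promoter peaks too. Within 50 kb of a TSS, 5 of 9 had a V5 peak (Met, Hgf, Erbb3, Igf1r and Fgfr1), beside 41.3%, 5 an RNAPOL2 peak, beside 69.9%, and 8 an H3K27ac peak, beside 75.1%. No test was made of these counts, which serve to place the single genes.

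**Figure D1:**
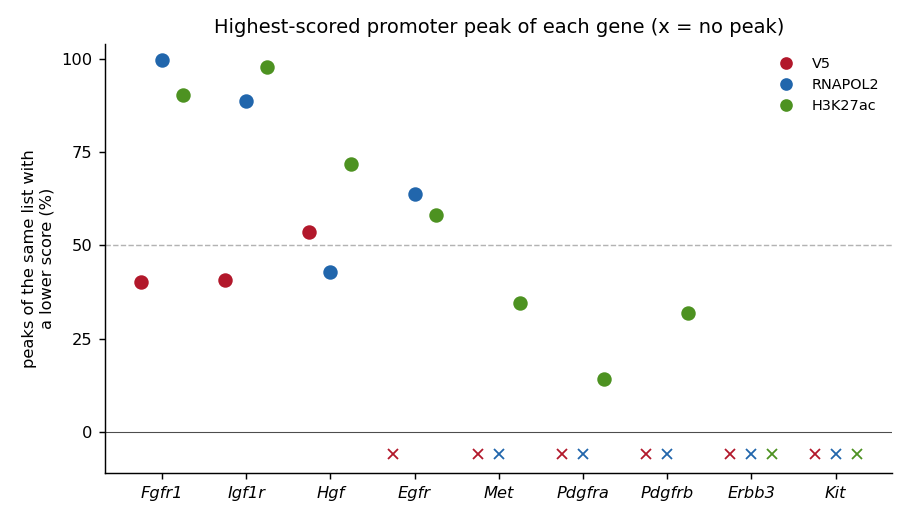
Highest-scored promoter peak of each of the 9 genes. The y axis gives the percent of the peaks of the same list that have a lower score, a cross below the line marks a gene with no promoter peak in that list, and the dashed line is at 50%. The RNAPOL2 peak of Fgfr1 (99.6%) and the H3K27ac peak of Igf1r (97.9%) are near the top of their lists, while the V5 peaks of Fgfr1, Igf1r and Hgf lie between 40.2% and 53.5%.

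Fgfr1, a receptor of fibroblast growth factors, had the strongest RNAPOL2 peak among the 9 genes. The gene (ENSMUSG00000031565.18) lies at chr8:25513654-25575718 on the forward strand, and the annotation gives it 18 TSSs. The RNAPOL2 peak at 25518421 to 25520080, over an exon of Fgfr1, had a score of 7033 and rank 80 of 20375. Of the 11738 coding genes with an RNAPOL2 promoter peak, 99.3% had a lower best score. H3K27ac covered the same start in a peak of 4020 bp with a score of 1745 (rank 2676), and a further H3K27ac peak, whose edge reached to within 3 kb of a TSS, had a score of 1040 (rank 4995).

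The V5 signal at the Fgfr1 promoter was modest beside these. Its peak at 25521481 to 25522200 lay in an intron, with its middle 2003 bp past the nearest TSS, and had a score of 176 (rank 6369 of 10665). It overlapped both the H3K27ac peak with the score of 1745 and a smaller RNAPOL2 peak with a score of 98, but not the RNAPOL2 peak of rank 80. It held the string shown above and the variant TGACTTCA, and no TGACGTCA.

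More V5 peaks lay upstream of Fgfr1 than in it. Their near edges were 42024, 31464, 30254 and 25804 bp from the nearest TSS, and their scores were 369, 288, 238 and 163 (ranks 3452, 4388, 5144 and 6644). All 4 lay within Gm31045, a long non-coding gene, 3 in introns and 1 in an exon, and Fgfr1 was the coding gene with the nearest TSS for each. The peaks with scores of 288 and 238 each held TGACGTCA, the first of them beside a TGACATCA, as shown above. The peak with the score of 163 held TGATGTCA. H3K27ac overlapped the peaks of scores 369 and 238, in acetylation peaks of low score (101 and 74), and RNAPOL2 overlapped none of the 4.

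The V5 peaks beyond the 3′ end of Fgfr1 lay at its neighbours. The V5 peak of the highest score at any of the 9 genes, 579 (rank 2232), lay at the TSS of Letm2, which encodes a mitochondrial membrane protein. It held TGACGTCA and overlapped RNAPOL2 (score 2526) and an H3K27ac peak of rank 103 (score 5655). A V5 peak with a score of 63 lay at Nsd3, which encodes a histone methyltransferase. Both were counted for Fgfr1 only because they fall within 50 kb of one of its annotated starts, and they are the nearest to other genes.

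RNAPOL2 also lay along the gene. The body of Fgfr1 held 8 RNAPOL2 peaks, which covered 16.7% of its length, and 164 coding genes had more body peaks. Among coding genes of at least 50 kb, 120 had a higher coverage. Of these 8, 6 had a score under 100, and their median score was 81.5, beside 246 for the whole list. At least 5 RNAPOL2 peaks in the body were found in Fgfr1 and Igf1r, and in 2.12% of all coding genes. Past the annotated end, at 25575718, the next RNAPOL2 peak ran from 25575861 to 25580540 with a score of 137, and the following ones, in exons of the neighbour Letm2, had scores of 89 and 54. Letm2 was the coding gene with the nearest TSS for all 3. The 3 H3K27ac peaks of the body covered 16.3% of it. When H3K27ac peaks that lay at most 12.5 kb apart were joined, Fgfr1 was the only one of the 9 genes to overlap a cluster of at least 3 peaks (26.8 kb, with 3 H3K27ac peaks and 1 V5 peak), as did 16.1% of coding genes. With a joining distance of 12 kb, chosen after the data were seen, 0 of the 9 genes did, beside 15.7%.

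**Figure D2:**
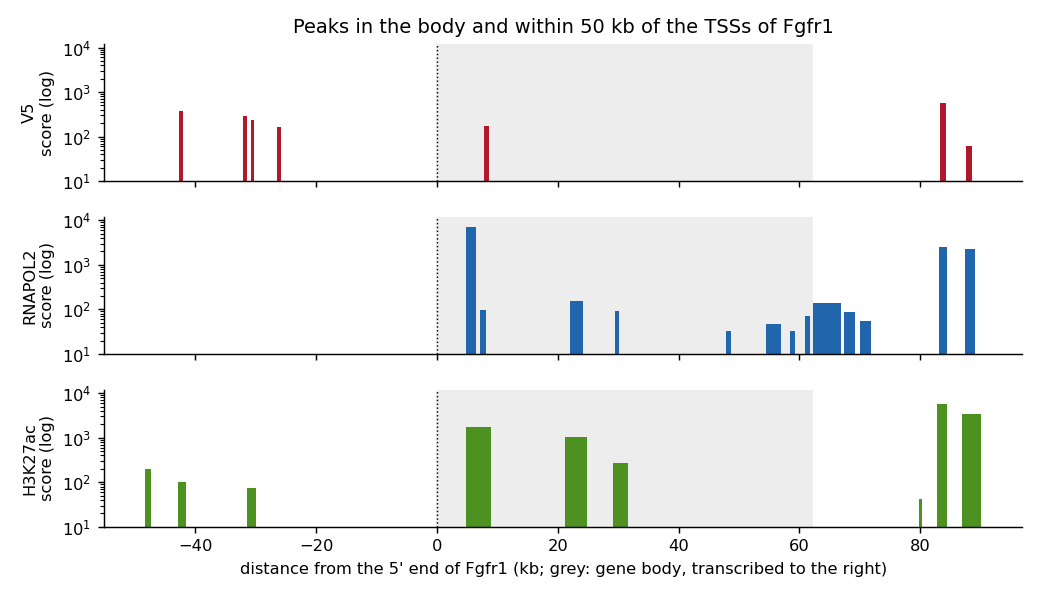
Peaks of the 3 lists at Fgfr1. The x axis is the distance from the 5′ end of the gene in kb, the grey band is the gene body, and each bar spans a peak (drawn at least 0.6 kb wide) with its score on a log axis that starts at 10. The RNAPOL2 peak with the score of 7033 stands near the start of the body, 4 V5 peaks with scores from 163 to 369 stand upstream, and the peaks at the right edge are those of Letm2 and Nsd3.

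Igf1r, the receptor of insulin-like growth factor 1, carried the strongest acetylation at its own promoter of the 9 genes. The gene (ENSMUSG00000005533.10) lies at chr7:67952827-68233668 on the forward strand and is 280.8 kb long. The H3K27ac promoter peak at 67950311 to 67956650 was 6340 bp wide, with a score of 3616 and rank 556 of 27552. Of the 12846 coding genes with an H3K27ac promoter peak, 633 had a higher best score. The RNAPOL2 promoter peak had a score of 1762 (rank 2272), higher than the best promoter score of 78.0% of genes with such a peak.

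The V5 promoter peak of Igf1r lay just upstream of the TSS, at 67950651 to 67952590, with a near edge at 237 bp. Its score was 185 (rank 6102), and 47.4% of genes with a V5 promoter peak had a lower best score. Only 284 V5 peaks were wider than this one, at 1940 bp. It overlapped both the RNAPOL2 and the H3K27ac promoter peak and held none of the 3 motifs and no string, at a GC content of 71.2%.

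The 3 other V5 peaks of Igf1r were intronic and mostly weak. Their scores were 76, 50 and 223 (ranks 9387, 10180 and 5369). The peak with the score of 223 held TGAGGTCA, shown above, and overlapped no H3K27ac, but RNAPOL2 at a score of 39. The peak with the score of 50 held an AP1 motif at its first bases and overlapped neither mark. The peak with the score of 76 held no motif and overlapped RNAPOL2 (score 48) and H3K27ac (score 55).

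RNAPOL2 was spread thinly along the length of Igf1r. Its body held 21 RNAPOL2 peaks, and 31 coding genes had more. The peaks covered 6.62% of this long body, and 243 of the 5007 coding genes of at least 50 kb had a higher coverage. Of these 21, 19 had a score under 100, and the lowest was 28. The exceptions were the promoter peak and an intronic peak with a score of 421 (rank 8418), which overlapped an H3K27ac peak with a score of 397. A score of 54 was shared by 6 of the 21, and by 899 peaks of the whole RNAPOL2 list. At least 5 H3K27ac peaks in the body were found in 3.60% of coding genes, and at least 5 V5 peaks, which none of the 9 genes had, in 0.966%. The 10 H3K27ac peaks in the body of Igf1r had a median score of 69.5, beside 212 for the whole list, and 7 of them overlapped RNAPOL2.

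**Figure D3:**
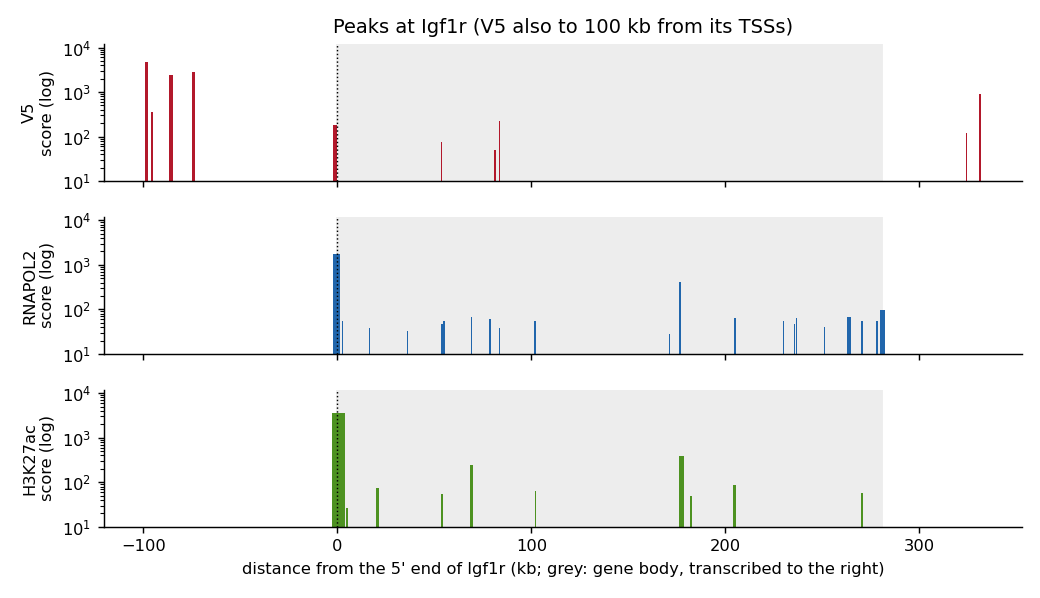
Peaks of the 3 lists at Igf1r, drawn as for Fgfr1, with the distance from the 5′ end of the gene in kb on the x axis and the score on a log axis. V5 peaks are shown as far as 100 kb from a TSS. The promoter holds the tallest RNAPOL2 and H3K27ac bars (scores of 1762 and 3616), the 21 RNAPOL2 peaks run through the grey body, and the V5 bars at the left edge, outside the 50 kb zone, are taller than any V5 bar at the gene.

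Hgf, the ligand of MET, which is made mostly by mesenchymal cells, had the V5 promoter peak of the highest score of the 9 genes. The gene (ENSMUSG00000028864.7) lies at chr5:16553495-16620152 on the forward strand. The V5 peak at 16552621 to 16553210 lay upstream, with its near edge 285 bp from the nearest TSS, with a score of 246 (rank 4956). It held the variant TGATCTCA shown above. It overlapped the H3K27ac promoter peak, with a score of 613 (rank 7788), and lay next to but not over the RNAPOL2 promoter peak, with a score of 168 (rank 11470).

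The RNAPOL2 peak of Hgf was low for a promoter. Only 7.13% of genes with an RNAPOL2 promoter peak had a lower best score, while the share for its V5 peak was 58.7% and that for its H3K27ac peak 38.6%. Beyond these peaks, 1 in each list, Hgf held no peak in its body or within 50 kb.

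Met, the receptor of HGF, differed from its ligand. The gene (ENSMUSG00000009376.15) lies at chr6:17463800-17573980 on the forward strand. It had no RNAPOL2 peak in any zone, the nearest being 89.6 kb from a TSS, and its single H3K27ac peak, over the first exon, had a score of 120 (rank 17530). Of genes with an H3K27ac promoter peak, 6.81% had a lower best score.

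V5 was nevertheless found around Met, in 3 peaks. The peak of the highest score, 301 (rank 4108), lay at 17573171 to 17573880 in the last exon, within the 3′ UTR, and held no motif. A peak upstream, 20670 bp from the nearest TSS, had a score of 129 (rank 7813) and held TGAGCTCA and an AP1 motif. The last, beyond the gene end at 17583861 to 17584390, had a score of 174 (rank 6381) and held the TGACGTCA shown above. For all 3 the coding gene with the nearest TSS was Met, and none overlapped RNAPOL2 or H3K27ac, as was the case for 26.2% of all V5 peaks.

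Egfr, the receptor of epidermal growth factor, had polymerase and acetylation at its promoter and no V5 peak in any zone. The gene (ENSMUSG00000020122.16) lies at chr11:16752203-16918158 on the forward strand. Its RNAPOL2 promoter peak had a score of 571 (rank 7298), and 31.4% of genes with such a peak had a lower best score. Its H3K27ac promoter peak had a score of 304 (rank 11539), and 2 intronic H3K27ac peaks had scores of 334 and 65. The nearest V5 peak was 243.7 kb from a TSS.

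Pdgfra and Pdgfrb, the receptors of platelet-derived growth factors that mark fibroblasts and pericytes, had acetylation only. Pdgfra (ENSMUSG00000029231.15, chr5:75152292-75198215, forward strand) had 2 H3K27ac peaks, with scores of 49 and 65. Pdgfrb (ENSMUSG00000024620.11, chr18:61045150-61085061, forward strand) had 2 as well, with scores of 110 and 41. All 4 lay below the median score of 212 of the H3K27ac list. The nearest V5 peaks were 208 kb and 166.1 kb from a TSS of Pdgfra and Pdgfrb, and the nearest RNAPOL2 peaks 107.2 kb and 85.1 kb.

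Kit, the receptor of stem cell factor, lay in a stretch without any peak. In the body of the gene (ENSMUSG00000005672.12, chr5:75574916-75656722, forward strand) and within 50 kb of its TSSs there was no V5, RNAPOL2 or H3K27ac peak, as was the case for 23.0% of coding genes. The nearest V5 and H3K27ac peaks were 221.5 kb and 221.6 kb from a TSS, and the nearest RNAPOL2 peak 328.9 kb.

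Erbb3, which binds neuregulins and signals mainly by pairing with ERBB2, also had no peak of its own. Its body (ENSMUSG00000018166.8, chr10:128567523-128589652, reverse strand) and promoter held none. The 2 V5, 4 RNAPOL2 and 3 H3K27ac peaks within 50 kb were each nearest to another coding gene, namely Zc3h10, Rpl41, Pa2g4 or Rps26. The V5 peaks there had scores of 153 and 103, and the former, at Zc3h10, held TGACGTCA. The absence of a peak says only that none passed the calling threshold of the lists.

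Over the 9 genes, there were 17 V5 peaks, of which 6 scored above the median of the V5 list, and their own median was 176, beside 230. The 41 RNAPOL2 peaks had a median score of 66.0, beside 246, and the 32 H3K27ac peaks a median of 115, beside 212. Of the 17 V5 peaks, 5 held TGACGTCA (29.4%, Wilson 95% interval 13.3 to 53.1, counting error only), beside 8.51% of all V5 peaks. Of these 5, 3 were at or upstream of Fgfr1 and its neighbour Letm2, 1 was at Met and 1 at Zc3h10 near Erbb3. A variant was held by 9, the AP1 motif by 3, a string by 2, and at least 1 of the 3 motifs by 12 of the 17 (70.6%, 46.9 to 86.7), beside 59.0%. In the central 200 bp of each peak, 6 of the 17 held a motif, beside 30.5%. H3K27ac overlapped 10 of the 17 (58.8%, 36.0 to 78.4), beside 73.4%, and RNAPOL2 8 (47.1%, 26.2 to 69.0), beside 42.0%. These counts include the V5 peaks at the TSSs of the neighbours Zc3h10, Rpl41, Letm2 and Nsd3, all of which overlapped both marks. The intervals take the peaks as independent draws, but peaks at the same gene share a locus and are not independent. The intervals therefore cannot place the 17 peaks against the background, and no difference from it was tested.

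**Figure D4:**
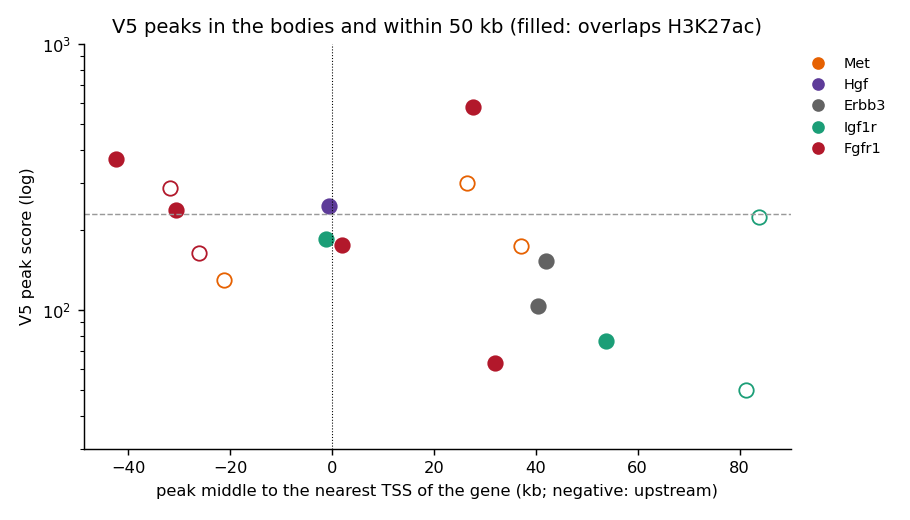
The 17 V5 peaks at Met, Hgf, Erbb3, Igf1r and Fgfr1. The x axis is the distance in kb from the middle of the peak to the nearest TSS of that gene (negative upstream), the y axis the score on a log scale from 30, filled points overlap H3K27ac, and the dashed line is the median score of all V5 peaks (230). All 3 peaks of Met are open, and the highest point (579) is the peak at Letm2, counted for Fgfr1.

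Promoter sequences of 300 bases from RefSeq (250 bases before to 50 after the start, GRCm38.p6) were matched for Met, Hgf, Egfr, Kit, Pdgfra and Igf1r. None of them held TGACGTCA or a variant, and that of Met held TGAGTCA. Among all 32851 RefSeq promoters, 1.79% held TGACGTCA, 12.5% a variant and 5.20% TGAGTCA.

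Close relatives of the receptors differed among themselves. Fgfr2 had all 3 promoter peaks like Fgfr1, with a V5 score of 890 (rank 1413), whereas Fgfr3 had RNAPOL2 and H3K27ac without V5 and Fgfr4 had none. Erbb2, the partner of ERBB3, had RNAPOL2 (score 554) and H3K27ac (score 532) like Egfr, and Erbb4 had none like Erbb3. Insr and Insrr, the relatives of Igf1r, had RNAPOL2 and H3K27ac without V5. Mst1r, the relative of Met, had none, and of the relatives of Kit and the PDGF receptors, Csf1r had H3K27ac alone and Flt3 had none.

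Of 50 other receptor tyrosine kinases, 3 had a V5 promoter peak, 27 RNAPOL2 and 29 H3K27ac, beside 16.6%, 53.5% and 58.6% of all coding genes. The same shares are the background of the lists that follow. Those with V5 were Epha2, an ephrin receptor, with a score of 1177, Fgfr2, and Lmtk2 with a score of 193. All 3 shared the pattern of Fgfr1, Igf1r and Hgf. The pattern of Egfr was found in 23 of the 50, that of Met, Pdgfra and Pdgfrb in 3 (Csf1r, Tyro3 and Aatk), and that of Erbb3 and Kit in 20.

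From the ligands of these receptor families, other than Hgf, 28 genes were chosen, of which 3 had a V5 promoter peak (Fgf1 with a score of 469, Egf with 153 and Fgf18 with 76), 13 RNAPOL2 and 15 H3K27ac. Of 31 adaptors and effectors, 14 had a V5 promoter peak, 30 RNAPOL2 and 30 H3K27ac, and the highest V5 scores were those of Ptpn11 (1642), a phosphatase that passes receptor signals on to RAS, and Nras (1511), followed by Frs3 (651), an adaptor of FGF receptors, and Stat3 (537). Of 20 negative regulators, 10 had a V5 promoter peak, 17 RNAPOL2 and 18 H3K27ac. They were led by Lrig1, which promotes the degradation of ERBB receptors and MET, with a V5 score of 3610 (rank 156), followed by Socs4 (862), Errfi1 (759), an inhibitor of EGFR whose RNAPOL2 promoter peak had rank 17 of 20375, and Ptprb (363). Over the genes that had a V5 promoter peak, the median of the best score was 117.5 for the adaptors and effectors and 174.5 for the negative regulators, beside scores of 176, 185 and 246 at Fgfr1, Igf1r and Hgf. No difference between the gene lists was tested.

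**Figure D5:**
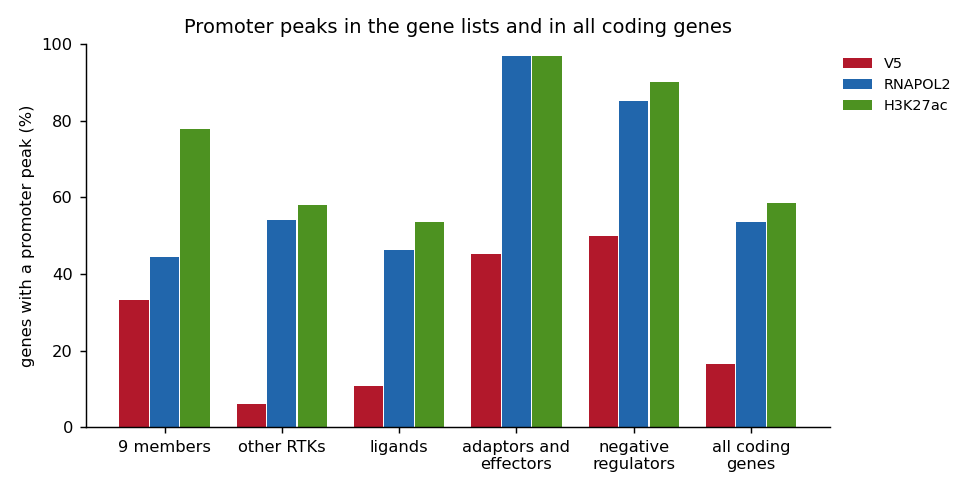
Percent of genes with a promoter peak in each of the 3 lists, for the 9 genes, the 50 other receptor tyrosine kinases (RTKs), 28 ligands, 31 adaptors and effectors, 20 negative regulators and all 21938 coding genes. V5 promoter peaks were found at 3 of the 9 genes, 3 of the 50 other receptors, 3 of the 28 ligands, 14 of the 31 adaptors and effectors and 10 of the 20 negative regulators, and at 16.6% of all coding genes.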

How the data were processed

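The authors made ChIP-seq libraries from tumours, with 4 labelled samples each for V5, RNAPOL2, H3K27ac and input. Per the submitters' processing notes and the study's methods, BWA (0.7.10-r789) aligned the reads to mm10, duplicates were dropped, and MACS2 (2.2.6, p-value option 1e-10) called peaks against input, with the broad option for H3K27ac. Denylisted regions were then filtered out. The deposited values are 1 score per peak in 1 list per antibody. The scale of this score is not stated. The methods describe averaging replicates for the signal tracks, but not how replicates were combined for the peak lists. They also name more V5 and RNAPOL2 samples than the labels, so the samples behind each list are uncertain. For V5, the study mentions a larger set of sites as well as a set whose promoter and distal classes add up to the length of the deposited list, so every absence of a V5 peak refers to the deposited list. The methods name 1 approximate depth for the libraries, but the depth reached per sample was not in the lists.

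Genes came from GENCODE vM21 (GRCm38) and promoters from RefSeq. Overlap meant at least 1 bp. Python 3.11.15, pandas 2.3.3, scipy 1.17.1 and pysam 0.24.0 were used, and functions were tested on simulated data. The 9 genes and all gene lists were chosen with earlier results of these data known, so no test was made. All 9 genes are named. From each further list the 4 genes with the highest V5 promoter score are named, with close relatives of the receptors, receptors that share a member's pattern of promoter peaks where these are few, and the nearest coding genes of V5 peaks. The melanocytic markers are named in full. The motifs of 1 of the 4 V5 peaks upstream of Fgfr1 are not reported here.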

Additional observations from a re-analysis of the deposited data

How the results depend on the processing

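Of 43 alternative values, 30 stayed close to those reported (counts within 1.5 times, shares within their Wilson interval), and 13 moved. Keeping the upper 50% of each list by score lowered the genes with a V5 promoter peak from 3 to 1 (Hgf), while the share of all coding genes fell from 16.6% to 7.30%. Likewise the genes with an H3K27ac promoter peak went from 7 to 4 (all coding genes 58.6% to 50.1%), those with a V5 peak in the body from 3 to 1 (Met; 20.0% to 10.4%) and those with a V5 peak within 50 kb from 5 to 3 (41.3% to 24.4%). It left 6 of the 17 V5 peaks, of which 5 held a motif (68.3% of all V5 peaks kept), 33.3% overlapped H3K27ac (49.7%) and 16.7% overlapped RNAPOL2 (23.5%). A distance of 25 kb gave 8 V5 peaks, 5 of them with a motif, and 100 kb gave 26 V5 peaks. When the central 200 bp of each peak were searched, 6 of the 17 held a motif, and the share of all V5 peaks fell from 59.0% to 30.5%. With a joining distance of 12 kb, an alternative chosen after seeing the data, 0 of the 9 genes overlapped a cluster of H3K27ac peaks. The number of genes with an RNAPOL2 promoter peak stayed within 1.5 times of 4 under each alternative run for it, which were other promoter windows, TSSs of coding transcripts only, the middle of the peak and the upper 50% by score. No paired analysis was possible because each antibody has 1 list without columns per sample, and leaving out a replicate was not possible for the same reason. The lists limit all results to presence and rank, since a gene without a peak may still have signal below the calling threshold.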

Other observations

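The V5 peaks of the highest scores near any of the 9 genes lay outside the 50 kb zone, between 50 and 100 kb from a TSS. These peaks came into view when the distance was widened to 100 kb, and the ones named here were chosen after their values were seen. Upstream of Igf1r, 4 intergenic V5 peaks lay 98.3, 95.6, 85.7 and 74.1 kb from its TSS, with scores of 4654, 351, 2371 and 2883 (ranks 85, 3587, 339 and 248 of 10665). All 4 overlapped H3K27ac in peaks of low or middling score (270, 270, 372 and 74), in a stretch where 4 H3K27ac peaks joined into a cluster of 25.2 kb, and none overlapped RNAPOL2. The coding gene with the nearest TSS was Igf1r for 3 of them and Synm, which encodes an intermediate filament protein, for the peak with the score of 4654, at 94209 bp from Synm and 97657 bp from Igf1r. The peak with the score of 351 held TGACGTCA, that with the score of 4654 held TGAGATCA and 2 AP1 motifs, and that with the score of 2371 held none of them.

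The peak with the score of 2883 held 2 TGACATCA sites and 2 strings of TGA or TCA units (of 6 and 5 units), and 1 TGACATCA lay within a string. The stretch around its middle, on the forward strand of mm10, is shown because of its run of TCA units, with both TGACATCA sites in capitals.
Igf1r, intergenic V5 peak 74.1 kb upstream, chr7:67878649-67878848: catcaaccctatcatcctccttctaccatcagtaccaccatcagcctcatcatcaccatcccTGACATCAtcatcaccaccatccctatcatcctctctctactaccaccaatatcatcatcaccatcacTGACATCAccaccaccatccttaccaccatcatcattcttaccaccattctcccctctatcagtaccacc

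Beyond the 3′ end of Igf1r, V5 peaks with scores of 122 and 906 lay at Fam169b. Between 50 and 100 kb from Erbb3, a V5 peak with a score of 1128 (rank 1052) lay at the TSS of Myl6, which encodes a myosin light chain, and held TGACGTCA, and weaker V5 peaks with scores of 94 and 196 lay at Ikzf4 and Suox. No V5 peak lay between 50 and 100 kb from the other 7 genes. Which gene, if any, is controlled from these peaks was not tested.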
